A study of Rattus norvegicus with 4 samples.

Results

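The creatine and creatine kinase genes described here are 6 genes: Ckm, Ckmt2, Ckb, Gatm, Gamt and Slc6a8. They were taken by name, as every probe whose gene name in the scanner files was one of these symbols, with or without the ending for a predicted gene. This gave 8 of 41012 probes and 6 of 35655 genes, with 2 probes each for Gamt and Slc6a8 and 1 probe for each other gene. The samples were gracilis muscle, a thigh muscle, of male Sprague-Dawley rats whose age the labels do not give. Blood flow to the injured muscles was stopped for 4 h and then restored for 1, 3, 7 or 14 days, and the controls were sham-operated. Each day had 1 array, with 1 injured muscle labelled with Cy5 and 1 sham muscle labelled with Cy3, so no day had a replicate, the dyes were never exchanged and a dye effect cannot be told apart from the injury. The labels name no unoperated muscle, and do not say when after surgery the sham muscles were taken or whether the arrays shared 1 sham RNA.

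Creatine kinases move a phosphate group between ATP and creatine, so that phosphocreatine can restore ATP where it is spent. In skeletal muscle the M-type enzyme Ckm sits in the cytosol and at the M line of the sarcomere, the sarcomeric mitochondrial enzyme Ckmt2 charges creatine between the mitochondrial membranes, and the brain-type enzyme Ckb is the cytosolic form of many other tissues and of muscle precursors. Creatine is made in sequence by Gatm, which joins arginine and glycine, and Gamt, which adds the methyl group, mostly in kidney, pancreas and liver, and muscle takes it up through the transporter Slc6a8.

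The probes that carry the comparison between the cytosolic kinases lie at matching places in the coding ends of their transcripts. The Ckm probe is at chr1:78772418-78772477 on the plus strand and the Ckb probe at chr6:136452432-136452491 on the minus strand of rn4, the build of the array files. They are shown because signal from either gene on the other's probe depends on how alike they are, and capitals mark the bases that are the same in both when aligned.
Ckm probe: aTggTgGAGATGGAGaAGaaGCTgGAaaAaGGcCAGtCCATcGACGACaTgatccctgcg
Ckb probe: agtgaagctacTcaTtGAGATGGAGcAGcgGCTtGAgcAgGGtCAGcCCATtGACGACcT
Of 50 aligned bases, 35 were the same, or 70%. How far each transcript bound to the other's probe was not tested.

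Ratios are log2 of injured over sham after background correction and loess normalisation within each array, and levels are log2 intensities after a further scaling between arrays. With 1 array per day no p-value was possible for a day, so genes were counted by a rule of size, at least 2-fold from sham. The share of probes with a signal well above background was 64.43% to 68.68% for injured muscle and 34.72% to 47.28% for sham muscle. All 8 member probes were well above background in both channels of every array. A single scanning session covered days 1, 3 and 7, and day 14 had a session of its own, so that the effects of that day and of that scan cannot be told apart. Centring each array on its median in place of loess moved the median of all genes by 0.35, 0.26, 0.23 and 0.22 on days 1, 3, 7 and 14, and the authors' deposited ratio moved it by 0.12, 0.15, 0.19 and 0.07. Taken relative to the median of all genes, the day 1 ratio was -3.25 with loess and -2.01 with median centring for Ckm, -4.95 and -3.87 for Ckmt2, and -2.59 and -1.65 for Slc6a8. Relative values past 2-fold were lower for the same number of members, 3, on day 1 and on day 3 in both settings.

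In the first days the muscle-type kinases and the creatine transporter were far lower in injured muscle than in sham muscle, whereas Ckb and the synthesis genes were not. On day 1, Ckm was 9.36-fold lower, Ckmt2 30.4-fold lower and Slc6a8 5.94-fold lower. On day 3, Ckm was 19.5-fold lower, Ckmt2 49.8-fold lower and Slc6a8 3.58-fold lower, although Slc6a8 was short of 2-fold with median centring (-0.79). On day 7 Ckmt2 was 1.97-fold lower, just short of 2-fold, and passed it in the authors' deposited table (-1.82) and against the mean sham level (-1.04). Gamt was 2.11-fold higher on day 7. On day 14 none of the 5 members with a measured ratio was 2-fold from sham, but Gamt, at 0.91, passed 2-fold with median centring (1.57), in the authors' deposited table (1.03) and against the mean sham level (1.04). Ckmt2, at 0.4, passed it with median centring only (1.31). Ckm had only a lower bound on days 7 and 14, so how far above sham it may have stood is unknown.

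On day 1, 3 of the 6 members were at least 2-fold lower and 0 were higher, against 4.92% lower and 1.24% higher, or 6.16% in either direction, among the 22948 genes measured. The median member ratio was -1.3, and that of all genes was 0.02. On day 3, again 3 members were lower and 0 higher, against 3.95% lower and 2.47% higher, or 6.42% either way, of 24468 genes, with a median member ratio of -0.94 and an all-gene median of 0.03. On day 7, 0 members were lower and 1 was higher (median -0.2), against 1.25% lower and 3.13% higher, or 4.38% either way, of 23498 genes. On day 14, 0 were lower and 0 higher (median 0.09), with Ckm taken at its bound on both days, against 1.58% lower and 3.15% higher, or 4.72% either way, of 23750 genes. With 6 members, the day 7 and day 14 counts are not a result about the members.

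**Figure D1:**
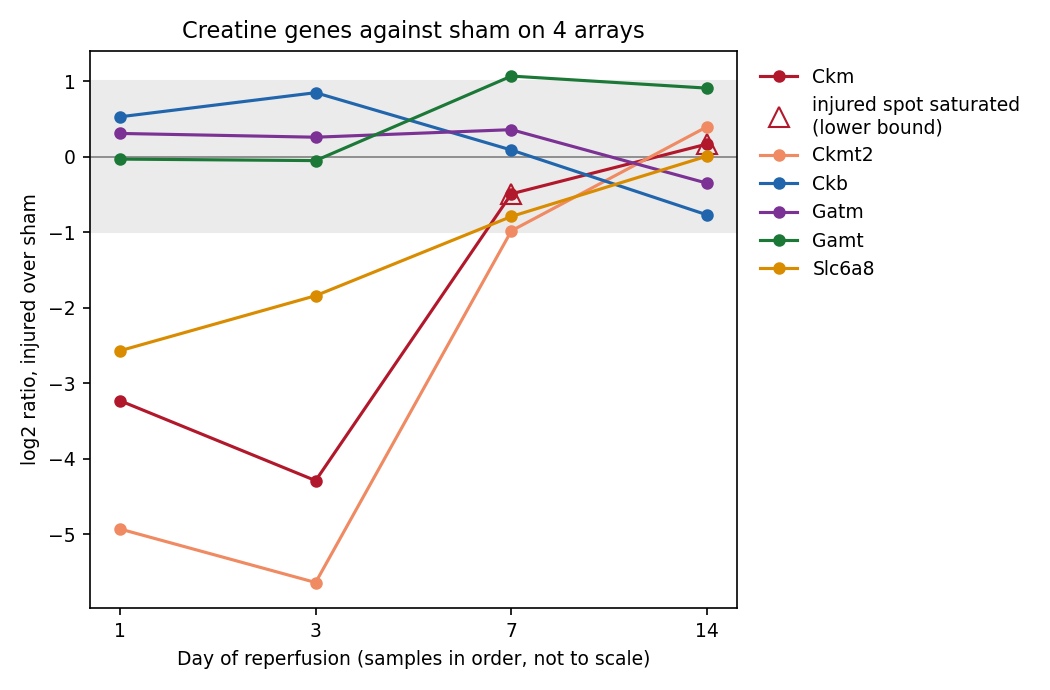
Log2 ratio of injured over sham muscle (vertical axis) for the 6 members on days 1, 3, 7 and 14 (horizontal axis, evenly spaced), 1 array per day. The grey band marks less than 2-fold and open triangles mark lower bounds from a saturated injured spot. Ckm, Ckmt2 and Slc6a8 lie below the band on days 1 and 3, and Gamt lies above it on day 7.

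Ckm, the kinase of the sarcomere, had log2 levels of 13.06, 12.05, 15.5 and 15.44 in injured muscle on days 1, 3, 7 and 14, against 16.29, 16.33, 15.98 and 15.27 in the sham muscles of the same arrays. The injured levels of days 1 and 3 were below all 4 sham levels, which averaged 15.97 ± 0.49 (SD, n = 4). The log2 ratio was -3.23 on day 1 and -4.29 on day 3. On days 7 and 14 the injured spot was saturated, so its ratios of -0.49 and 0.17 are lower bounds. The sham levels themselves spanned 2.09-fold, and with that mean in place of each array's own sham the 4 ratios were -2.91, -3.92, -0.47 and -0.53. The last 2 of these are lower bounds as well, and with median centring the bounds were 0.55 on day 7 and 1.11 on day 14. The sign on day 7 is therefore unknown, and on day 14 it is known only relative to the sham muscle of that array.

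Ckmt2, the mitochondrial kinase, was further from sham than Ckm on both early days. Its log2 levels were 10.46, 9.64, 14.02 and 14.96 in injured muscle, against 15.39, 15.28, 14.99 and 14.56 in sham muscle (15.05 ± 0.37, SD, n = 4). The injured levels of days 1, 3 and 7 lay below every sham level. The ratios were -4.93, -5.64, -0.98 and 0.4, so that on day 7 it was 1.97-fold lower and on day 14 1.32-fold higher. Ranked from the lowest ratio, Ckmt2 stood at 4 of 22948 genes on day 1 and 5 of 24468 genes on day 3, while Ckm stood at 104 and 46. With the mean sham level as the base its day 14 ratio was -0.09. With median centring its day 7 ratio was -0.01 and its day 14 ratio was 1.31, past 2-fold. In the authors' deposited table its day 7 log2 ratio was -1.82.

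Ckb, the cytosolic form of other tissues, was higher in injured muscle on the days when Ckm was lowest. Its log2 levels were 11.25, 11.52, 10.84 and 9.94 in injured muscle, against 10.72, 10.68, 10.75 and 10.71 in sham muscle. The sham levels lay within 0.07 of each other, and the injured level was above all of them on days 1, 3 and 7 and below all of them on day 14. The ratios were 0.53, 0.85, 0.09 and -0.77, that is 1.44-fold, 1.8-fold and 1.06-fold higher and then 1.71-fold lower, all short of 2-fold. On day 3, 3.76% of genes had a higher ratio, and on day 14, 3.12% had a lower one. With median centring the ratios were 1.78, 1.84, 0.85 and -0.07, so days 1 and 3 passed 2-fold there.

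The 2 cytosolic forms moved apart early. The Ckb ratio minus the Ckm ratio was 3.75 on day 1, a 13.5-fold difference, and 5.13 on day 3, a 35.1-fold difference. On day 7 it was at most 0.57 and on day 14 at most -0.94, since the Ckm ratio is a lower bound on these days. The Ckmt2 ratio minus the Ckm ratio was -1.7 on day 1 and -1.35 on day 3. These differences compare ratios and not levels, since levels of different probes cannot be set against each other. The ubiquitous mitochondrial kinase Ckmt1, which is not a member, had ratios of -0.08, -0.06, -0.18 and 0.06.

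**Figure D2:**
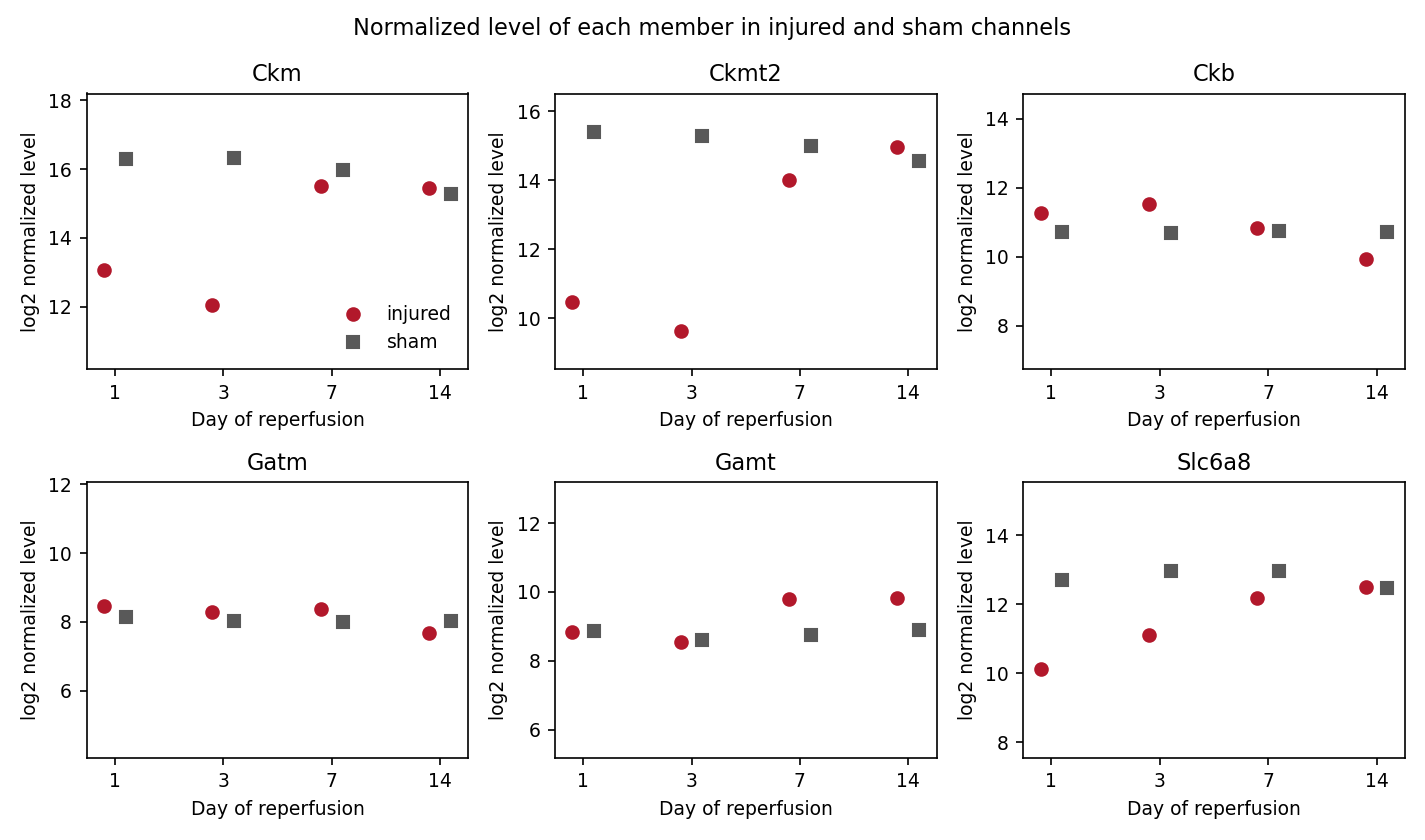
Log2 normalised level (vertical axis) of each member in injured (red circles) and sham (grey squares) muscle on days 1, 3, 7 and 14, with 1 sample per point. The injured and sham points stand far apart for Ckm and Ckmt2 on days 1 and 3, where Ckmt2 had 10.46 and 9.64 in injured muscle against 15.39 and 15.28 in sham muscle.

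Gatm, the first enzyme of creatine synthesis, was short of 2-fold on every day. Its log2 levels were 8.45, 8.29, 8.37 and 7.67 in injured muscle, against 8.15, 8.03, 8.01 and 8.02 in sham muscle. The injured level lay above all sham levels on days 1, 3 and 7 and below them on day 14. The ratios were 0.31, 0.26, 0.36 and -0.35. With median centring they were 1.2, 0.97, 0.91 and 0.18, so that day 1 passed 2-fold and day 14 turned its sign.

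Gamt, the methyltransferase that completes creatine, was level with sham early and higher later. By the brighter probe its log2 levels were 8.83, 8.56, 9.81 and 9.82 in injured muscle, against 8.86, 8.61, 8.74 and 8.91 in sham muscle. The injured level stood above the sham range on days 7 and 14 only, and just below it on day 3. The ratios were -0.03, -0.05, 1.07 and 0.91, and those of the dimmer probe were 0.03, -0.21, 0.97 and 0.72. The probes, which share 6 bases, differed by at most 0.19 on any day, and the dimmer one did not reach 2-fold on day 7. With median centring the brighter probe's ratios on days 1 and 3 were 0.97 and 0.74, so their sign depended on the scaling.

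Slc6a8, the creatine transporter, came back toward sham over the series by its brighter probe. Its log2 levels were 10.12, 11.12, 12.18 and 12.49 in injured muscle, against 12.69, 12.96, 12.97 and 12.48 in sham muscle (12.77 ± 0.24, SD, n = 4). The injured levels of days 1, 3 and 7 were below every sham level. The ratios were -2.57, -1.84, -0.79 and 0.01, and with median centring they were -1.28, -0.79, 0.07 and 0.81, which ended the 2-fold call on day 3. The dimmer probe, which lies nearer the 5′ end of the transcript at position 2078 against 3823, gave -1.35, -1.26, -0.5 and -0.98. The brighter probe's ratio minus the dimmer probe's was -1.22 on day 1 and 0.99 on day 14, so the size on day 1 and the return on day 14 depended on the probe.

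Other probes at the members' loci, chosen after their values were seen, gave a further reading. A probe at chr2:22087054-22088397 on the minus strand of rn4, 2639 bases from the Ckmt2 probe and described in the files as similar to the sarcomeric mitochondrial kinase, had ratios of -4.03, -4.01, -1.06 and -0.04. It was thus 16.3-fold lower on day 1 and 16.1-fold lower on day 3, against 30.4-fold and 49.8-fold at the Ckmt2 probe. Its sham levels spread from 9.91 to 12.02.

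Opposite-strand probes overlapped those of Ckm and Gamt, and they are shown because labelled RNA of either strand could be confused by position alone. The one at Ckm is at chr1:78772398-78772457 on the minus strand, and capitals mark the 40 bases that are the reverse complement of bases 1 to 40 of the Ckm probe. For Gamt, at chr7:10961950-10962009 on the plus strand and chr7:10961962-10962021 on the minus strand, capitals mark the 48 bases that pair between the probes.
Opposite-strand Ckm probe: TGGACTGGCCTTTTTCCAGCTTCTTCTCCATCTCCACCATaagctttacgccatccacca
Gamt probe: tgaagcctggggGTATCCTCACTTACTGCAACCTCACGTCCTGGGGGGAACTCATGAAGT
Opposite-strand Gamt probe: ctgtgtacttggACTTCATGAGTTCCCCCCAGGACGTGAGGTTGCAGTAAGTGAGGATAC
The opposite-strand Ckm probe had ratios of -1.33, -1.51, 0.45 and 0.46 and was not saturated on any day. It was 2.52-fold lower on day 1 and 2.85-fold lower on day 3, less than the 9.36-fold and 19.5-fold of the Ckm probe. The opposite-strand Gamt probe had ratios of -0.43, 0.11, 0.7 and 1.16, and was 2.24-fold higher than sham on day 14. Whether these probes measured antisense RNA was not tested.

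**Figure D3:**
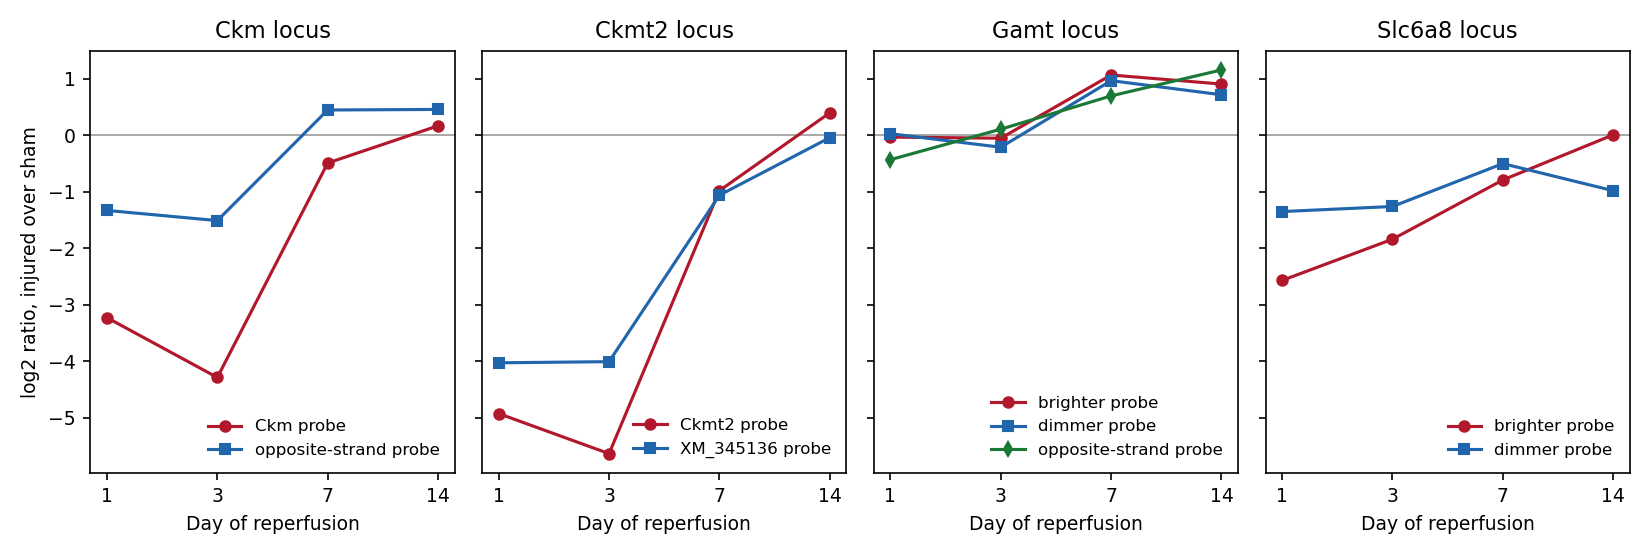
Log2 ratio of injured over sham (vertical axis) on days 1, 3, 7 and 14 for each probe at a member's locus, 1 array per day. The brighter and dimmer probes of Gamt lie within 0.19 of each other, whereas those of Slc6a8 differ by 1.22 on day 1 and 0.99 on day 14.

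Between successive days, the large step was from day 3 to day 7. The day 7 ratio was at least 2-fold above the day 3 ratio for 4 of 6 members and below it for 0, against 4.85% above and 2.23% below among 22338 genes. The difference was at least 3.8 for Ckm, 4.66 for Ckmt2, 1.12 for Gamt and 1.05 for Slc6a8. With the mean of each gene's probes 3 members passed, and Slc6a8 went from -1.55 on day 3 to -0.64 on day 7, short of 2-fold. From day 1 to day 3, 1 member was lower by this rule (Ckm, -1.06) and 0 were higher, against 1.66% lower and 3.09% higher of 22288 genes. From day 7 to day 14, 1 was higher (Ckmt2, 1.38) and 0 were lower, against 1.82% higher and 1.25% lower of 21816 genes. For Ckm the day 7 and day 14 ratios are bounds, so its step between these days is unknown, and part of the Ckmt2 step came from the sham side, where the level on day 14 was -0.43 from that of day 7 beside 0.95 in injured muscle.

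An offset shared by all 4 days was tested with limma against 0, with days standing in for replicates. In this test 0.156% of 20539 genes were lower and 0.0243% were higher at an adjusted p of 0.05, and 0 of the 6 members passed. Without adjustment, 1 member had a limma p below 0.05, which was Slc6a8 (mean -1.3, SE 0.46, limma adjusted p = 0.21). Ckmt2 had a mean of -2.78 (SE 1.17, limma adjusted p = 0.255) and Ckm -1.96 (SE 0.85, limma adjusted p = 0.264), with 3 of 4 days below 0 for each, and the saturated Ckm spots entered at their measured values. Gamt had a mean of 0.48 (SE 0.24), Ckb 0.17 (SE 0.28) and Gatm 0.14 (SE 0.14), with limma adjusted p from 0.315 to 0.742. The test cannot see a course over time, and a p above the threshold does not show that a gene was level with sham.

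The markers of muscle fibres moved with the early differences. Of 9 measured fibre markers of 10 listed, among them the actin Acta1 and the troponins Tnni2, Tnnt3 and Tnnc2, 9 were at least 2-fold lower on day 1 and 9 on day 3. On day 7, 1 was lower and 1 higher, and on day 14, 0 were lower and 5 higher. Some marker spots were saturated, 1 of 9 in sham muscle on days 1 and 3, and 3 on day 7 and 5 on day 14 in injured muscle. Among the markers with no saturated spot, 8 of 8 were lower on days 1 and 3, 1 of 6 was lower and 1 higher on day 7, and 3 of 4 were higher on day 14. Against the mean sham level, these 4 had day 14 ratios of -0.44 (Acta1), 0.44 (Myh4), 1.04 (Tnnt3) and 1.03 (Pygm). With saturated spots at their measured values, the markers' summed log2 level was 15.97, 14.84, 17.87 and 18.4 in injured muscle, against 19.2, 19.04, 18.06 and 17.64 in sham muscle. All 9 stayed well above background in both channels. In bulk muscle, fewer fibres and less RNA per fibre cannot be told apart, and the markers' part in the members' ratios was not tested.

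Set beside the markers, the members did not all lie in one place. On days 1 and 3, Ckm lay inside the range of the 8 unsaturated markers and differed from their median by -0.11 and -0.43. On days 7 and 14 its place among the markers is unknown, since it has only a bound. Ckmt2 lay below all 8 unsaturated markers on days 1 and 3, and differed from their median by -1.81 and -1.78. It was not placed against the remaining marker, Tnnc2, whose sham spot was saturated on both days. Slc6a8 and Ckb lay above all 9 on days 1 and 3 and below all 9 on day 14. Against the mean sham level, however, the day 14 ratio of Slc6a8 (-0.28) was above that of Acta1 (-0.44). The unsaturated markers ranged from -3.84 to -2.89 on day 1, -5.23 to -3.55 on day 3, -1.01 to 1.1 on day 7 and 0.22 to 1.65 on day 14.

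**Figure D4:**
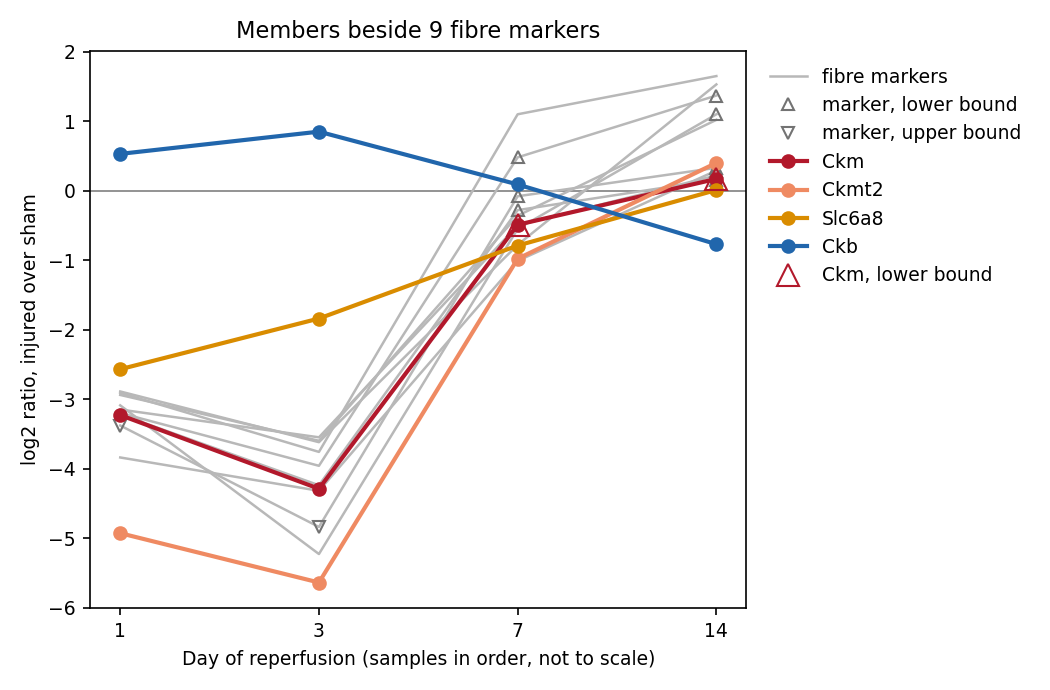
Log2 ratio of injured over sham (vertical axis) on days 1, 3, 7 and 14 for the 9 fibre markers (grey lines) and Ckm, Ckmt2, Slc6a8 and Ckb, 1 array per day. Open triangles mark bounds from saturated spots, pointing up for a lower and down for an upper bound. On days 1 and 3 Ckm lies inside the range of the 8 unsaturated markers and Ckmt2 below it.

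Markers of other cell types also differed on the days when Ckb was higher. Of 9 macrophage and monocyte markers, 4, 2, 4 and 1 were at least 2-fold higher and 1, 1, 1 and 2 lower on days 1, 3, 7 and 14. Their summed log2 level was 16.16, 15.52, 16.31 and 15.47 in injured muscle, against 15.16, 15.44, 15.46 and 15.37 in sham muscle. The injured sum of day 1 is a lower bound, since the injured spot of Lyz2 was saturated. Of 5 fibroblast markers, 0, 4, 3 and 3 were higher and 2, 0, 0 and 0 lower, with summed levels of 14.05, 16.49, 16.88 and 16.9 in injured muscle, against 15.75, 15.08, 14.68 and 14.62 in sham muscle. The injured spot of Col3a1 was saturated on days 3, 7 and 14, and that of Col1a1 on days 7 and 14. The injured sums of those days are therefore lower bounds. Of 7 markers of satellite cells and regenerating fibres, 0, 1, 4 and 2 were higher and 4, 2, 0 and 1 lower. None of these 3 lists had a marker below background in the injured channel, and their part in the ratios of Ckb or Gamt was not tested. The list for smooth muscle and pericytes, cells that use Ckb, had 3 measured markers of 4 on the array. Its summed levels were 9.97, 11.11, 11.36 and 10.99 in injured muscle, against 10.29, 10.42, 10.32 and 10.23 in sham muscle. These sums include Cnn1, which was not well above background in either channel on any day. Of 5 neutrophil markers, 2 were higher on day 1 and 2 lower on days 7 and 14. No Schwann cell marker was 2-fold from sham on any day, 1 endothelial marker was higher on days 7 and 14, 2 adipocyte markers were higher on days 3, 7 and 14, and 2 T cell markers were higher on days 7 and 14, with 1 lower on days 3, 7 and 14. The smooth muscle list had 1 marker lower on day 1 and 1 higher on each later day.

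The genes around the creatine system were counted by lists, in order of their place in it. For the exchange of adenine nucleotides and adenylate kinases, 9 of 15 genes were lower and 0 higher on day 1, 7 lower and 0 higher on day 3, 1 lower and 1 higher on day 7, and 1 lower and 2 higher on day 14. The list's median was -1.1, -0.92, 0.16 and 0.22. Slc25a4, the muscle ADP/ATP carrier that feeds Ckmt2, had ratios of -2.52, -2.13, 0.16 and 0.64 by its brightest probe. Over its 3 probes, the ratios ran from -2.52 to -1.37 on day 1 and from -2.13 to -1.09 on day 3. They ran from -0.05 to 0.42 on day 7 and from 0.64 to 1.44 on day 14. The brightest probe's day 7 ratio was -0.39 as deposited and -0.9 against the mean sham level. Ak1, the cytosolic adenylate kinase, had -1.1, -1.17, 1.68 and 1.24. Ampd3, an AMP deaminase, stayed lower throughout at -2.24, -3.04, -2.09 and -1.94. Ampd1, another AMP deaminase, had -4.84, -6.39, 0.81 and 1.78 by its brighter probe. The other Ampd1 probe had -0.07, -0.06, 0.05 and 0.06, so these differences depended on the probe.

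Of the proteins beside which creatine kinase works, such as myosins, M-line proteins, ion pumps and glycolytic enzymes, 13 of 16 were lower and 0 higher on day 1, and 12 lower and 0 higher on day 3. On day 7, 2 were lower and 4 higher, and on day 14, 1 was lower and 9 higher, with list medians of -2.87, -3.38, 0.43 and 1.12. Myh2, a fast myosin heavy chain, had a ratio of -4.29 on day 3 and 3.23 on day 14. Myh7, another myosin heavy chain, stayed lower throughout at -4.09, -4.24, -3.99 and -2.66. Its sham spot was saturated on days 1, 3 and 14, so those ratios are upper bounds. Atp1b4 had 3.26 on day 7, where its sham spot was not well above background, and 3.52 on day 14. The other Atp1b4 probe had 0.19 and 0.26 on these days. Mybpc2, the fast myosin-binding protein C, was 4.75-fold lower on day 7. Myom2, a protein of the M line where Ckm binds, had 1.28 on day 7, whereas its other probe had 0.3, short of 2-fold. Myh4 is also among the fibre markers.

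The supply of arginine, glycine and methyl groups gave few calls, with 0 lower and 1 higher of 15 on day 1, 0 lower and 1 higher of 14 on day 3, none of 14 on day 7, and 1 lower and 0 higher of 16 on day 14. The list's median was 0.12, 0.04, 0.16 and 0.01. Arg1, the arginase that consumes arginine and is also made by macrophages, was 4.55-fold higher on day 1 and 5.66-fold lower on day 14. Nnmt, which uses the same methyl donor as Gamt, was 2.61-fold higher on day 3. Of the other creatine partners and SLC6 transporters, none of the 6 or 7 measured was 2-fold from sham on any day, and their medians lay between 0.05 and 0.14. Among regulators of muscle energy genes, 4 of 13 were lower and 0 higher on day 1, and 4 of 14 lower and 1 higher on day 3. On day 7, 0 of 15 were lower and 1 higher, and on day 14, 1 of 14 was lower and 1 higher, with medians of -0.2, -0.19, 0.12 and 0.1. Myf6, a myogenic transcription factor, was 7.28-fold lower on day 1 and 12.8-fold lower on day 3, and Myod1, another, had a ratio of 1.95 on day 3. A further one, Myog, had ratios of -3.74, -1.45, -0.02 and -1.22. Prkag3 had -1.77 on day 3, where its injured spot was not well above background, and 2.06 on day 14. The other Prkag3 probe had -0.21 and 0.15 on these days.

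The genes whose course was nearest to each member's were named by the root mean square difference of the log2 ratio over the 4 arrays, among 10804 genes with a symbol. For Ckm they were Tnni2 (0.106), Nrap (0.229), Tnnc2 (0.363), Mybpc1 (0.37) and Acta1 (0.371), of which Tnni2 and Tnnc2 also had saturated spots. Ckm itself was saturated on days 7 and 14, so its distances rest in part on bounds. For Ckmt2 they were Neb (0.373), Asb2 (0.557), Rpl3l (0.635), Pdlim3 (0.643) and Xirp2 (0.744). For Slc6a8 the nearest were Ptp4a3 (0.224), Acadl (0.25), Pink1 (0.271), Phyh (0.283) and Chpt1 (0.288).

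For Ckb, whose course was flatter, the nearest were Tlcd3a (0.0479), Slk (0.107), Tpm4 (0.107), Tcirg1 (0.108) and Dnph1 (0.121). For Gatm they were Lims1 (0.0576), Kdf1 (0.065), Trib1 (0.0692), Myh9 (0.0758) and Luc7l (0.0819), and for Gamt they were Ifi44l (0.0908), Plxnc1 (0.0918), Tapbp (0.0953), P2ry14 (0.096) and Psen2 (0.103). All of these values rest on the same 4 arrays.

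The promoters of the 3 kinases are shown because Ckm and Ckmt2 were lower together while Ckb was not. They run from 250 bases before to 50 after the start of each gene in RefSeq, build GRCr8, at chr1:88189211-88189510 on the plus strand for Ckm, chr2:24845462-24845761 on the minus strand for Ckmt2 and chr6:136553415-136553714 on the minus strand for Ckb. Capitals mark 3 motifs in each promoter, on either strand: the E-box CANNTG, the core that myogenic factors bind, TATAAA and CCAAT.
Ckm promoter: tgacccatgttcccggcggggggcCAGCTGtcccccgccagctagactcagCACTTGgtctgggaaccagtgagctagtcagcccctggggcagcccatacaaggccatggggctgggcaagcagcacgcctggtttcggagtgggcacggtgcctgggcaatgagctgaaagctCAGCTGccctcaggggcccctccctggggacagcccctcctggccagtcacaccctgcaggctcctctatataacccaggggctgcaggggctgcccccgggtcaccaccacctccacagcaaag
Ckmt2 promoter: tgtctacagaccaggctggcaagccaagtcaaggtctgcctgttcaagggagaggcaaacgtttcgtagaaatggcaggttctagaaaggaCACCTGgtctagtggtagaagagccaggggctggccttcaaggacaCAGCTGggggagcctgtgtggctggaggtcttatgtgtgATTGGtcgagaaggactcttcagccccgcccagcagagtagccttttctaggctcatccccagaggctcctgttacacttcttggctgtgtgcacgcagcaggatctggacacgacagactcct
Ckb promoter: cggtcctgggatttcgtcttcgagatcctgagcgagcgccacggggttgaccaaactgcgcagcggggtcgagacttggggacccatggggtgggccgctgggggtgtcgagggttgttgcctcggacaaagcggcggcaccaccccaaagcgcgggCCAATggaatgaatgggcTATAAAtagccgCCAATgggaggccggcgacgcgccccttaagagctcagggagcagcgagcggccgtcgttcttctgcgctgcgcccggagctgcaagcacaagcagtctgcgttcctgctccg
On both strands, CANNTG was found 3 times in Ckm, from positions -226, -199 and -75, and 2 times in Ckmt2, from -159 and -113. Of 27457 promoters of this length, 71.6% held at least 1 and 15.9% at least 3. It was also found 1 time each in Gatm and Slc6a8, and 0 times in Ckb and Gamt. TATAAA was found in Ckb alone of the 6, from -75 (14.3% of promoters). CCAAT was found in Ckb from -93 and -63, in Ckmt2 from -74 and 2 times in Gatm (37.7%). A MEF2 match at -76 in Ckb overlapped its TATAAA (3.37%). These matches describe letters in a window, and none of the factors was measured at these sites.

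**Figure D5:**
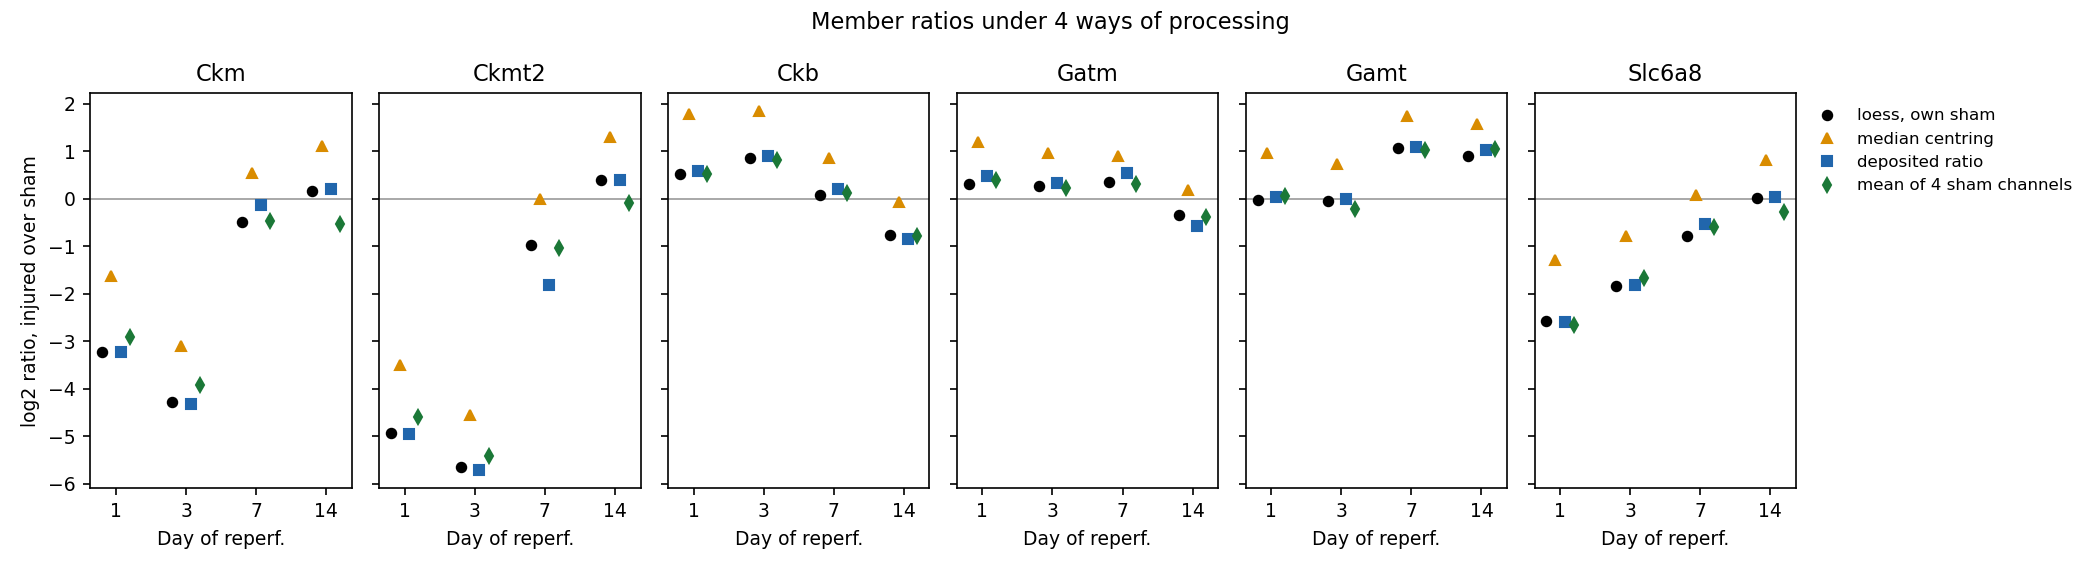
Log2 ratio of injured over sham (vertical axis) of each member on days 1, 3, 7 and 14 under loess against the array's own sham, median centring, the authors' deposited ratio and the mean of the 4 sham channels. Median centring lies above the other settings throughout and turns the sign for Gatm on day 14, Gamt on days 1 and 3 and Slc6a8 on day 7, and the mean of the sham channels turns it for Ckmt2 and Slc6a8 on day 14 and Gamt on day 1. The Ckm points of days 7 and 14 are lower bounds. Ckm and Ckmt2 stay below 0 on days 1 and 3 under all 4.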

How the data were processed

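RNA of 4 injured and 4 sham channels was read on 4 rat arrays from Agilent with 2 colours each. The deposited intensity of each spot is its mean pixel brightness with the median of its local background, not normalised, per the file headers. The deposited ratio of each spot is on a log10 scale, Cy5 over Cy3, and was background- and dye-corrected by the scanner software, per the file headers. The deposited value table gives log2 ratios, which differed from this ratio on the log2 scale by at most 0.005 over 40972 probes with 1 spot. Feature Extraction made the files, as version 10.5.1.1 per the file headers and 9.5.3 per the submitters' processing notes. The deposited saturation, outlier and well-above-background flags were used as given.

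Intensities were corrected with normexp (offset 50) and normalised by loess within each array, with control spots at weight 0, in R 4.3.3 with limma 3.58.1, and levels were scaled between arrays by Aquantile. Spots of a probe were averaged, and the brightest probe stood for a gene, with the mean of its probes as an alternative. A spot saturated in 1 channel gave a bound, which entered counts, medians and fits at its measured value. The comparison with unsaturated fibre markers was added after the data were seen. Genes were named from the files and, where possible, from RefSeq tables, and 21503 probes kept the name in the file. Likeness was computed in Python 3.11.15. Days were compared by size (2-fold) with no test. The mean over days was tested with limma against 0 (two-sided), with Benjamini-Hochberg adjustment over 20539 genes. The fit was tested on simulated arrays, with planted changes balanced up and down and the same on all 4 arrays. The real ratios varied by day, so that simulation does not cover them. Alternatives were median centring, no background correction, the deposited ratio, the mean of the 4 sham channels, the mean of a gene's probes, a stricter and no filter on dim spots, a 1.5-fold rule and leaving out each array. The arrays' number limits the precision. The 40 probes printed 10 times on each array had a median SD of the log2 ratio of 0.0353 to 0.0723, which covers spots and not animals. Named genes were the members, the 2 highest and 2 lowest genes of each list past 2-fold on a day, and the 5 nearest in course. A gene so named on 1 day is also given on other days. The members and lists were chosen with earlier results of these data known.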

Additional observations from a re-analysis of the deposited data

Results flagged for a closer look

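The sham levels of Gatm held a sample apart from the others. The Gatm log2 level in sham muscle was 8.15 on the day 1 array, against 8.01 to 8.03 on the other arrays, and this gap was 0.9 of the whole range, above Dixon's critical value for 4 samples. Chance flags about 1 in 20 groups, and 8 probes were examined. The size is small, and the Gatm ratio against the mean of all sham levels stayed short of 2-fold.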

How the results depend on the processing

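No ratio past 2-fold changed its sign under an alternative. Ratios short of 2-fold did so for Ckmt2 and Gatm on day 14, Gamt on days 1 and 3 and Slc6a8 on days 7 and 14, while Ckm has only lower bounds on days 7 and 14. The 3 members lower on days 1 and 3 were counted lower under every alternative but 1, median centring on day 3, where Slc6a8 was at -0.79. With median centring, 2 members were higher on day 1, 1 on day 3 and 3 on day 14. In that setting 5003 of 22948, 4199 of 24468 and 2887 of 23750 genes were higher on these days. Also there, 2 members were lower on day 3 than on day 1, and 2 were higher on day 7 than on day 3. In that setting 2 members passed the limma mean test (Gatm 0.82, adjusted p 0.0268, and Gamt 1.25, adjusted p 0.0117), where 8528 of 20539 genes did. Leaving out each array in turn gave 0 members in every case, but almost no gene passed there. The counts were 0 of 21315, 0 of 20690, 0 of 21463 and 8 of 20987 genes without day 1, 3, 7 and 14. These fits therefore say nothing about the members in particular. With the deposited ratio, 1 member was lower on day 7, as were 1897 of 23498 genes, and 1 higher on day 14, as were 4078 of 23750. In the same setting 2 members were lower on day 14 than on day 7. Against the mean of the sham channels, 1 was lower on day 7, as were 714 of 23498 genes, and 1 higher on day 14, as were 875 of 23750. In the same setting 0 members were higher on day 14 than on day 7. With a 1.5-fold rule, 1 was higher on day 3, 2 lower on day 7, 1 lower on day 14 and 1 higher on day 14. Shares over all genes are not given for this rule or for steps between days under the alternatives, so those counts are not a result about the members. On day 1, 79.8% of all called genes were lower, against 7.98% with median centring, 41.6% with the deposited ratio and 67.1% against the mean sham. On day 3 it was 61.5%, against 8.62% and 32.6% with the first 2 of these, on day 7 28.6%, against 2.89% with median centring and 45.7% against the mean sham, and on day 14 33.4%, against 3.38% with median centring. No paired analysis was possible because each group has 1 sample, so that groups share fewer than 2 replicate numbers and no replicate block could be fitted. The pairing of injured with sham muscle on an array is already in every ratio and in the limma test.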
